A study of Homo sapiens with 13 samples.

Results

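The genes described here are 40 subunits of the Polycomb repressive complexes and enzymes that remove ubiquitin from histone H2A, out of 62703 genes listed in each of the deposited count tables. They were chosen by name: every listed symbol that a gene identifier of the tables maps to, and all 40 were found with 1 identifier each. By role they are 9 genes of Polycomb repressive complex PRC2, 2 RING-type E3 ligases of PRC1, 10 other genes of canonical PRC1, 10 of variant PRC1, 4 of the PR-DUB deubiquitinase and 5 other H2A deubiquitinases. No measured value entered the choice of a symbol, although the set was proposed with earlier results of these data known.

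Polycomb complexes keep developmental genes silent through marks on histones. PRC1 attaches ubiquitin to histone H2A through RING1 or RNF2, and PRC2 methylates a lysine of histone H3 through EZH2 or EZH1. Canonical PRC1 reads that methylation with a CBX protein and packs chromatin with PHC proteins, whereas variant PRC1 carries RYBP or YAF2 instead and deposits most H2A ubiquitin in mouse embryonic stem cells. PR-DUB, made of BAP1 and an ASXL protein, and enzymes of the USP and MYSM families take the ubiquitin off again. RSF1 is a histone chaperone that binds ubiquitinated H2A through its UAB region, so the genes described here write, read around or erase the mark that RSF1 recognises.

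Poly-A RNA of 13 libraries in 5 groups was measured in established human ovarian carcinoma lines. SKOV3 cells overexpressed RSF1 (3 libraries), overexpressed RSF1delUAB, which lacks the UAB region (3 libraries), or carried a control vector (3 libraries), and no treatment is labelled for them. OVCAR3 cells expressed a UAB peptide (2 libraries) or a scramble control (2 libraries), and both OVCAR3 groups received doxycycline at 2000 ng/mL for 6 days before harvest. Neither clone nor passage is labelled, and nothing shows replicates to be cultures grown apart, so every p-value here measures the spread between these libraries, which may be technical.

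Depth ran between 15194678 and 18748009 counts in SKOV3 libraries and between 18160558 and 24026993 in OVCAR3. RSF1 replicate 1 of SKOV3 stood apart from its group: a chi-square of its counts over genes came to 14.4 and 16.4 per degree of freedom against replicates 2 and 3, where those replicates differed by 3.94, pairs within the other SKOV3 groups by 2.27 to 3.42 and pairs within the OVCAR3 groups by 13.0 and 15.3. Without that library 6 members rose and 23 fell in RSF1 against control, and 5 were higher and 15 lower in RSF1 against RSF1delUAB. RSF1 itself tested the labels before anything else. In SKOV3 it stood at 631, 775 and 749.8 CPM (read counts scaled to the TMM-adjusted library size) with RSF1 and at 459, 496 and 509 CPM with RSF1delUAB, against 42.2, 47.5 and 42.2 CPM in control. In OVCAR3 it stood at 787 and 586 CPM with UAB peptide and at 564 and 707 CPM with scramble, so it does not check those labels. Of 9 ovarian carcinoma markers 8, 8 and 7 exceeded 1 TPM in RSF1, RSF1delUAB and control SKOV3 libraries and all 9 in both OVCAR3 groups, with sums of 1930 to 2243, 3709 to 3969 and 3873 to 4154 TPM in SKOV3, while 6 immune markers summed to at most 2.48 TPM in SKOV3, with CD3E at 0 counts in all 9 libraries, and to 5.42 to 6.17 TPM with UAB peptide and 13.4 to 18.6 TPM with scramble. A list of 6 fibroblast markers summed to 107 to 117 TPM with RSF1 and 209 to 219.9 TPM with RSF1delUAB, against 4.48 to 5.40 TPM in control, and it summed to 62.0 to 65.7 TPM with UAB peptide against 66.0 to 71.0 TPM with scramble. A list of 5 endothelial markers summed to 0.39 to 0.59 TPM with RSF1 and 0.40 to 0.58 TPM with RSF1delUAB, against 3.16 to 4.26 TPM in control, and to 7.61 to 11.4 TPM with UAB peptide, against 4.63 to 6.32 TPM with scramble. PDGFRB was at 0 counts with RSF1delUAB and in control, and the ovarian marker MUC16 with RSF1delUAB. The part of those differences in the results below was not tested. In such bulk RNA, fewer cells expressing a gene and less RNA per cell cannot be told apart.

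Levels between genes were compared as TPM, in which counts are divided by summed exon length and scaled to the same total in each library. The median member stood at 20.3 TPM with RSF1 and 20.8 TPM with RSF1delUAB, against 24.3 TPM in control, and 36 of 40 reached 10 TPM in each of the 3 groups. With RSF1 and with RSF1delUAB the E3 ligase RING1 was the most abundant, at 162 ± 12.6 TPM and 153 ± 6.07 TPM. In control, BAP1, the catalytic subunit of PR-DUB, came first at 146 ± 1.58 TPM, with RING1 at 143 ± 8.74 TPM beside it (SD, n = 3 libraries), a difference within the spread of RING1. The scaffold PHC2 (117.6 ± 3.44 TPM), USP22 (106 ± 2.44 TPM) and the PRC2 subunit SUZ12 (95.7 ± 4.49 TPM) came next. At the other end were BCORL1 (7.23 ± 0.041 TPM), CBX7 (3.20 ± 0.45 TPM) and ASXL3 (1.04 ± 0.18 TPM). In OVCAR3 the top place belonged to USP22, the deubiquitinase of the SAGA coactivator complex, at 226 ± 27.6 TPM with UAB peptide and 168 ± 16.7 TPM with scramble (SD, n = 2). ASXL3 was last in OVCAR3 as well, with 7 counts over the UAB peptide libraries and 1 count over the scramble libraries, and was too low to be tested there.

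The 10 members called with at least a 2-fold change in a comparison lie on GRCh38, as the tables list their exons, at these positions. Those of PRC1 outside the E3 ligases are CBX6 at chromosome 22, 38861422 to 38872249 (minus strand), BCORL1 at chromosome X, 129981107 to 130058071 (plus strand), PCGF3 at chromosome 4, 705748 to 770089 (plus strand), RYBP at chromosome 3, 72371825 to 72446621 (minus strand), SCML2 at chromosome X, 18239313 to 18354688 (minus strand) and BMI1 at chromosome 10, 22321099 to 22331484 (plus strand). The others are USP16 at chromosome 21, 29024629 to 29054488 (plus strand), JARID2 at chromosome 6, 15246069 to 15522042 (plus strand), RNF2 at chromosome 1, 185045526 to 185102603 (plus strand) and ASXL3 at chromosome 18, 33578219 to 33751195 (plus strand). The use of strand in counting is not given in the sources used here, so reads of overlapping genes cannot be told apart. Shared exon bases were 24.6% of USP3 with USP3-AS1, 22.75% of BMI1 with the readthrough gene COMMD3-BMI1, 22.03% of PCGF3 with PCGF3-AS1, 21.38% of L3MBTL2 with L3MBTL2-AS1, 17.92% of CBX7 with a gene on the other strand that has no symbol, and 18.05% of PHC1 with M6PR, whose 9144 counts over SKOV3 exceeded the 3245 of PHC1. The values of these members are uncertain to that extent.

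In SKOV3 cells given RSF1, many of these genes were lower than in control. Of the 40 members, 6 rose and 22 fell against control at an adjusted p under 0.05 (edgeR quasi-likelihood test, adjusted by Benjamini-Hochberg over all 16735 genes tested), and 12 did not pass. That is 15% higher and 55% lower, where 34.3% of all genes tested were higher and 32.9% lower, or 67.3% called in either direction. The median log2 fold change of the members was -0.37, against 0.02 over all genes. By at least 2-fold, 1 member was called higher and 8 lower of 40, against 2718 higher and 1715 lower of all 16735 genes. Lower calls were spread over every complex: 5 of 9 genes of PRC2, 1 of 2 E3 ligases, 4 of 10 of canonical PRC1, 6 of 10 of variant PRC1, 3 of 4 of PR-DUB and 3 of 5 of the other deubiquitinases. Higher calls were 2 in PRC2 and 2 each in canonical and variant PRC1.

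Cells given RSF1delUAB were set against the same 3 control libraries, so the calls of these comparisons are not independent of each other and their values are given side by side. Here 8 members rose and 23 fell, 20% and 57.5% of 40, where 34.5% of all genes were higher and 32.1% lower, 66.6% in all. The median of the members was -0.27, against 0.02 over all genes. By at least 2-fold, 2 members were called higher and 4 lower of 40, against 2628 higher and 1654 lower of all 16735 genes. By complex, 5 of 9 genes of PRC2, 1 of 2 E3 ligases, 4 of 10 of canonical PRC1, 7 of 10 of variant PRC1, 3 of 4 of PR-DUB and 3 of 5 other deubiquitinases fell.

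**Figure D1:**
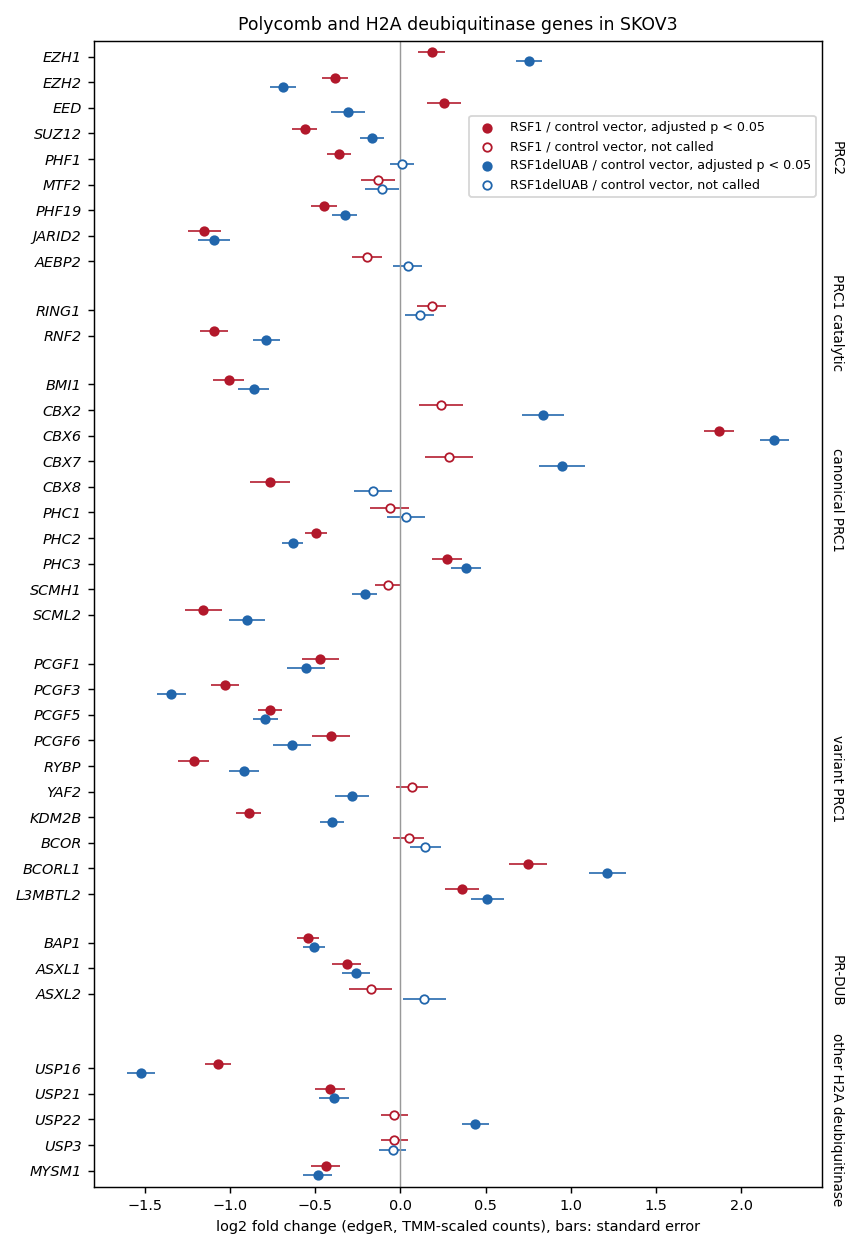
Log2 fold change of 39 members in SKOV3 (x axis), grouped by complex, for RSF1 against control (red) and RSF1delUAB against control (blue), with standard errors; filled points have adjusted p under 0.05. Most filled points lie left of 0, CBX6 lies farthest right at 1.87 and 2.19, and ASXL3 is left out because it had 0 counts with both constructs.

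Within PRC2, the methyltransferase EZH2 fell and its paralogue EZH1 rose. EZH2 was at 44.2, 43.8 and 43.3 CPM in RSF1 libraries and 33.0, 36.9 and 36.4 CPM in RSF1delUAB libraries, against 55.8, 61.0 and 54.3 CPM in control. The libraries of the 3 groups did not overlap. The log2 fold change was -0.38 (SE 0.076, adjusted p = 0.000169) with RSF1 and -0.69 (SE 0.077, adjusted p = 1.22e-07) with RSF1delUAB. EZH1 was at 35.9, 38.7 and 38.5 CPM in RSF1 libraries and 59.3, 54.6 and 53.9 CPM in RSF1delUAB libraries, against 33.0, 31.9 and 34.7 CPM in control. Its rise with RSF1delUAB was 0.75 (SE 0.077, adjusted p = 3.26e-08). With RSF1 it was 0.18 (adjusted p = 0.0462), a call lost without RSF1 replicate 2 or 3 or control replicate 1 or 2, where the adjusted p reached 0.145, and likewise with no low-count filter, with DESeq2, with a replicate block or with these groups fitted alone.

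JARID2, which helps bring PRC2 to chromatin, had the steepest fall of the complex before its chromosome region was taken into account. It was at 18.8, 23.2 and 23.4 CPM in RSF1 libraries and 21.7, 22.6 and 23.9 CPM in RSF1delUAB libraries, against 53.1, 45.3 and 47.0 CPM in control. All 6 construct libraries lay below the lowest control library, with log2 fold changes of -1.15 (SE 0.096, adjusted p = 1.84e-09) and -1.09 (SE 0.095, adjusted p = 3.33e-09). With the median change of neighbouring genes taken out as an offset (the regional offset, given in full further on), these were -0.38 and -0.30. PHF1 (-0.86) and SUZ12 (-0.61) then fell further than JARID2 with RSF1. With RSF1delUAB, EZH2 (-0.68), EED (-0.64), SUZ12 (-0.58), PHF1 (-0.42) and PHF19 (-0.32) did so. SUZ12, a core subunit that PRC2 cannot do without, was at 110, 115 and 99.8 CPM in RSF1 libraries and 135, 143 and 150.3 CPM in RSF1delUAB libraries, against 153, 160 and 168 CPM in control. It fell by 0.56 on the log2 scale with RSF1 (adjusted p = 7.35e-07). With RSF1delUAB it fell by 0.17 (adjusted p = 0.0426), a call lost without RSF1delUAB replicate 1 or 2 or control replicate 2 or 3, where the adjusted p reached 0.212. The PHD-finger subunit PHF19 fell with both constructs (-0.45 and -0.33), and PHF1, a related subunit, fell with RSF1 (-0.36) and did not pass with RSF1delUAB. MTF2, the last of that PHD-finger family, passed in neither comparison.

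EED, the subunit through which PRC2 binds its own mark, was the 1 member called in opposite directions before the regional offset. With that offset it was called lower with both constructs (-0.32 and -0.64). It was at 34.0, 30.5 and 31.3 CPM in RSF1 libraries and 24.5, 21.1 and 18.97 CPM in RSF1delUAB libraries, against 24.9, 27.7 and 27.6 CPM in control. RSF1 libraries were all above control and RSF1delUAB libraries all below it. The log2 fold changes were 0.26 (SE 0.098, adjusted p = 0.026) and -0.31 (SE 0.10, adjusted p = 0.0103). Neither call held in every set of libraries: the first was lost without RSF1 replicate 1 or control replicate 1, where the adjusted p reached 0.116, and the second without RSF1delUAB replicate 3 (adjusted p = 0.0801).

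**Figure D2:**
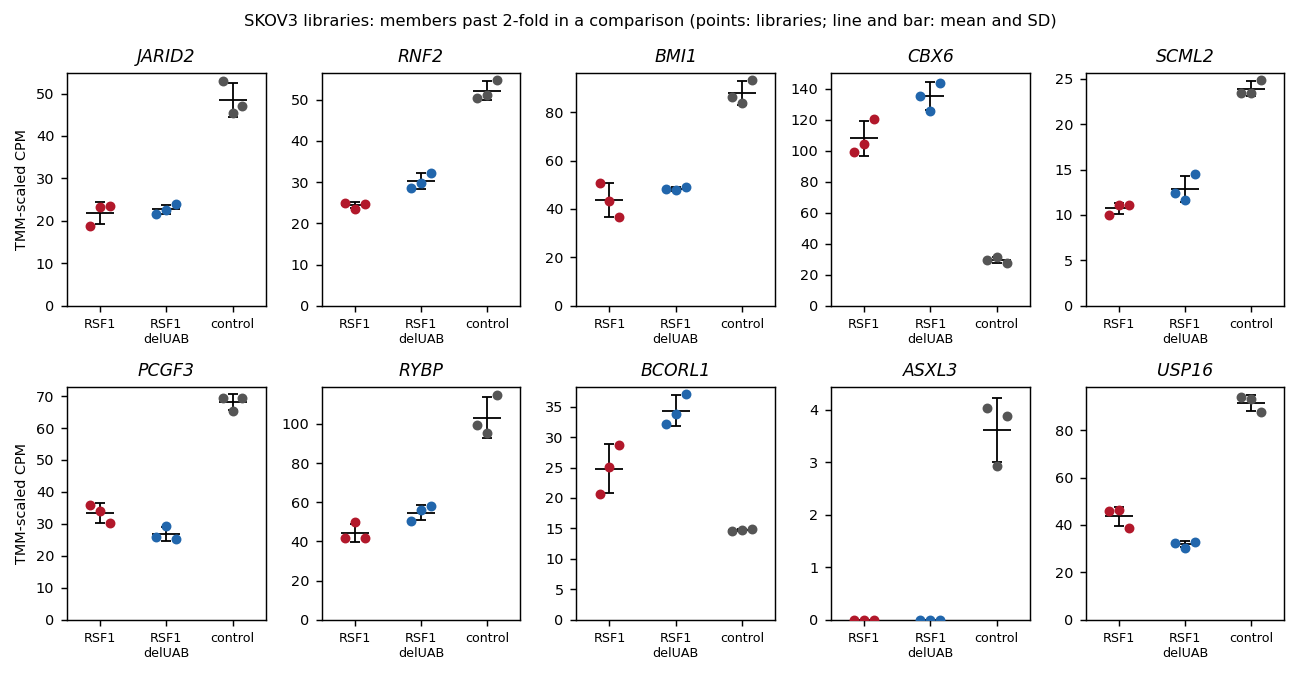
TMM-scaled CPM (y axis, from 0) of the 10 members called with at least a 2-fold change in a comparison, in the 3 RSF1, 3 RSF1delUAB and 3 control libraries of SKOV3; points are libraries, lines and bars the mean and SD. In 8 panels every construct library lies below every control library, and in the panels of CBX6 and BCORL1 every construct library lies above.

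Of the E3 ligases that ubiquitinate H2A, RNF2 fell and RING1 did not pass the test. With the regional offset, RING1 was called lower with both constructs (-0.33 in each, adjusted p = 0.00247 and 0.0024 by edgeR), and RNF2 fell by 0.48 with RSF1 and was not called with RSF1delUAB (-0.13, adjusted p = 0.152). RNF2 was at 25.04, 23.6 and 24.7 CPM in RSF1 libraries and 28.6, 29.9 and 32.3 CPM in RSF1delUAB libraries, against 50.4, 51.2 and 54.9 CPM in control. The log2 fold changes were -1.09 (SE 0.081, adjusted p = 2.75e-10) with RSF1 and -0.79 (SE 0.079, adjusted p = 2.57e-08) with RSF1delUAB. RING1 averaged 75.6 ± 9.42 CPM in RSF1 libraries and 71.9 ± 3.78 CPM in RSF1delUAB libraries, against 66.5 ± 4.15 CPM in control (SD, n = 3; adjusted p = 0.0643 and 0.253 by edgeR). The summed level of the pair was 186 ± 12.3 TPM with RSF1 and 183 ± 3.85 TPM with RSF1delUAB, against 196 ± 7.07 TPM in control, and RNF2 made up 13.1% ± 1.07 and 16.4% ± 1.58 of it, against 26.7% ± 1.96 in control.

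Canonical PRC1 held the largest rise and several deep falls. CBX6, a chromodomain subunit, was at 99.1, 105 and 120.3 CPM in RSF1 libraries and 136, 126 and 144 CPM in RSF1delUAB libraries, against 29.4, 31.5 and 27.7 CPM in control. The groups were far apart, with log2 fold changes of 1.87 (SE 0.086, adjusted p = 1.93e-13) and 2.19 (SE 0.086, adjusted p = 1.40e-14), which the regional offset reduced to 0.94 and 1.23, behind BCORL1 at 0.98 and 1.37. CBX2 and CBX7, which are chromodomain subunits of the same family, rose past the threshold with RSF1delUAB (0.84 and 0.95) and did not pass with RSF1. The call of CBX7 with RSF1delUAB was lost with the regional offset. CBX8 was at 14.7, 12.4 and 11.9 CPM in RSF1 libraries and 22.4, 16.9 and 20.02 CPM in RSF1delUAB libraries, against 21.0, 22.2 and 23.2 CPM in control, and fell by 0.77 on the log2 scale with RSF1 (SE 0.12, adjusted p = 9.08e-06). In TPM, CBX6 made up 66.3% ± 2.07 of the sum of these 4 genes with RSF1 and 61.8% ± 1.501 with RSF1delUAB, against 30.4% ± 0.76 in control. CBX8 made up 15.7% ± 2.69 with RSF1 and 17.5% ± 1.71 with RSF1delUAB, against 44.3% ± 3.51 in control. The sum itself was 79.3 ± 7.96 TPM with RSF1 and 106 ± 6.15 TPM with RSF1delUAB, against 47.5 ± 1.84 TPM in control.

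BMI1, the PCGF protein of canonical PRC1 that stimulates its E3 ligase, was at 50.9, 43.5 and 36.6 CPM in RSF1 libraries and 48.3, 47.7 and 49.2 CPM in RSF1delUAB libraries, against 86.5, 83.8 and 93.3 CPM in control. It fell by 1.01 (SE 0.092, adjusted p = 6.93e-09) and by 0.86 (SE 0.091, adjusted p = 5.96e-08) on the log2 scale. SCML2, a PRC1-associated protein of the sex comb family, was at 9.98, 11.1 and 11.1 CPM in RSF1 libraries and 12.4, 11.7 and 14.5 CPM in RSF1delUAB libraries, against 23.5, 23.4 and 24.9 CPM in control. Its log2 fold changes were -1.16 (SE 0.11, adjusted p = 1.04e-08) and -0.90 (SE 0.11, adjusted p = 2.55e-07). No construct library of either gene reached the lowest control library. Among the polyhomeotic proteins, which polymerise through their SAM domains, PHC2 fell with both constructs (-0.50 and -0.63), PHC3 was called higher with both (0.27 and 0.38) and PHC1 was called with neither. SCMH1, of the same family as SCML2, did not pass with RSF1 and fell by 0.21 with RSF1delUAB, a call lost without RSF1delUAB replicate 2 or 3 or control replicate 3, where the adjusted p reached 0.0633. The RSF1 and control libraries of PHC3 overlapped, at 68.5, 85.6 and 91.7 CPM with RSF1 against 71.3, 65.0 and 67.1 CPM in control, and that call was lost without RSF1 replicate 3 (adjusted p = 0.0648).

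All 4 PCGF genes of variant PRC1 among the members fell with both constructs, although PCGF6 with RSF1 was not called with the regional offset (-0.19, adjusted p = 0.151). PCGF3 was at 36.1, 34.0 and 30.1 CPM in RSF1 libraries and 25.9, 29.2 and 25.3 CPM in RSF1delUAB libraries, against 69.5, 65.4 and 69.5 CPM in control. The log2 fold changes were -1.03 (SE 0.083, adjusted p = 1.10e-09) and -1.35 (SE 0.084, adjusted p = 2.11e-11). PCGF1, PCGF5 and PCGF6 fell as well, by 0.41 to 0.77 with RSF1 and by 0.56 to 0.79 with RSF1delUAB on the log2 scale. Together with BMI1 the 5 PCGF genes summed to 143 ± 10.1 TPM with RSF1 and 137 ± 5.35 TPM with RSF1delUAB, against 242 ± 8.68 TPM in control (SD, n = 3).

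RYBP, which takes the place of a CBX protein in variant PRC1 and binds ubiquitinated H2A, was at 41.7, 49.8 and 41.9 CPM in RSF1 libraries and 50.3, 56.0 and 57.8 CPM in RSF1delUAB libraries, against 99.3, 95.2 and 115 CPM in control. It had the deepest fall of the members with RSF1 other than ASXL3, at -1.21 (SE 0.090, adjusted p = 2.73e-10), and -0.92 with RSF1delUAB (SE 0.088, adjusted p = 1.41e-08). With the regional offset these were -0.96 and -0.53, and SCML2 (-1.10) and PCGF1 (-0.98) fell further with RSF1. Its paralogue YAF2 did not pass with RSF1 and fell by 0.28 with RSF1delUAB, a call lost without RSF1delUAB replicate 1 or control replicate 3, where the adjusted p reached 0.102. RYBP made up 63.9% ± 3.72 of the TPM of the pair with RSF1 and 73.6% ± 0.42 with RSF1delUAB, against 81.2% ± 0.21 in control. KDM2B, the CpG-island binder that brings PCGF1 complexes to promoters, fell with both constructs (-0.89 and -0.40).

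The exceptions in variant PRC1 were BCORL1 and L3MBTL2, which rose, L3MBTL2 only before its chromosome region was taken into account. BCORL1, a corepressor of the PCGF1 complex, was at 20.6, 25.2 and 28.7 CPM in RSF1 libraries and 32.1, 33.7 and 37.1 CPM in RSF1delUAB libraries, against 14.6, 14.8 and 14.9 CPM in control. All construct libraries lay above all control libraries, with log2 fold changes of 0.75 (SE 0.11, adjusted p = 7.08e-06) and 1.22 (SE 0.11, adjusted p = 6.03e-09). Its paralogue BCOR passed in neither comparison, at 51.7 ± 7.87 CPM in RSF1 libraries and 55.2 ± 1.91 CPM in RSF1delUAB libraries, against 49.9 ± 1.21 CPM in control. L3MBTL2, the MBT-domain protein of PCGF6 complexes, was called higher at 0.36 and 0.51, where its regional medians were 0.93 and 0.92. With the regional offset it was called lower with both constructs (-0.57 and -0.41).

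The enzymes that remove ubiquitin from H2A fell or did not pass, apart from USP22. USP16 was at 45.8, 46.1 and 38.7 CPM in RSF1 libraries and 32.4, 30.4 and 32.6 CPM in RSF1delUAB libraries, against 93.9, 93.0 and 87.6 CPM in control. These groups were separate from each other in all libraries, and the log2 fold changes were -1.07 (SE 0.078, adjusted p = 2.44e-10) and -1.52 (SE 0.080, adjusted p = 1.42e-12). BAP1 was at 117.7, 122 and 123 CPM in RSF1 libraries and 132, 117 and 122 CPM in RSF1delUAB libraries, against 174, 179 and 176 CPM in control, and fell by 0.54 (SE 0.064, adjusted p = 2.90e-07) and by 0.51 (SE 0.064, adjusted p = 6.97e-07). ASXL1, the BAP1 partner with the highest level, fell with both (-0.32 and -0.26), and ASXL2 did not pass with either. Without RSF1 replicate 1, the fold change of ASXL1 with RSF1 was -0.21. The call of ASXL1 with RSF1delUAB was lost without control replicate 1 (adjusted p = 0.0544).

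ASXL3, the low partner, had 61, 44 and 60 counts in the 3 control libraries and 0 counts in all 6 construct libraries. Setting the floor at 3 counts over a group, it was at least 56.6-fold lower with RSF1 and at least 63.0-fold lower with RSF1delUAB, bounds that cover counting error only (adjusted p = 3.14e-08 and 2.19e-08 by edgeR). MYSM1 and USP21, a pair of further H2A deubiquitinases, fell with both constructs (-0.44 and -0.49 for MYSM1, -0.41 and -0.39 for USP21). USP3 passed in neither comparison. USP22 was called higher with RSF1delUAB (0.44, adjusted p = 6.58e-05) and did not pass with RSF1. With the regional offset the first call was lost (0.067, adjusted p = 0.485), and USP22 was called lower with RSF1 (-0.21, adjusted p = 0.0316).

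**Figure D3:**
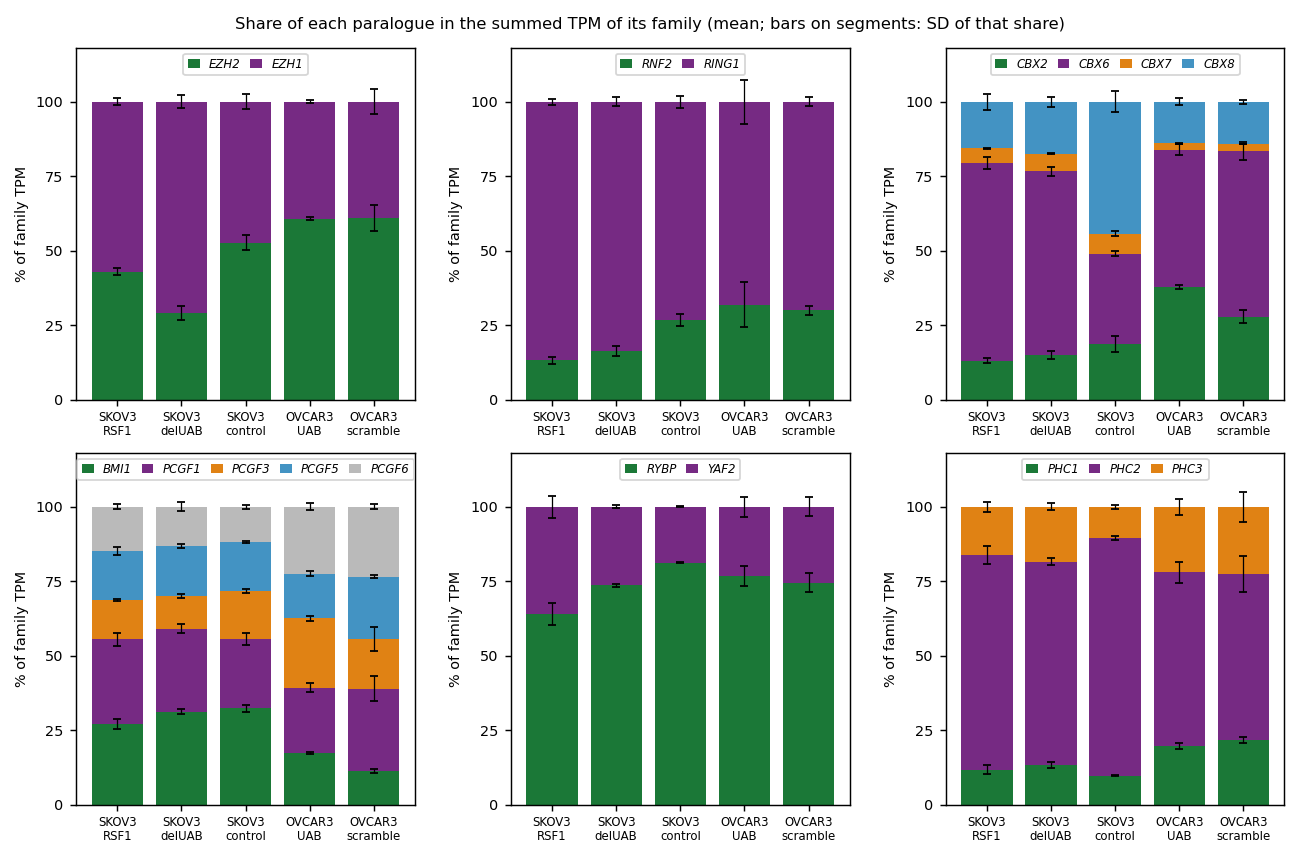
Share of each paralogue in the summed TPM of its family (y axis, percent), as the mean over libraries of a group with its SD, for 6 families in the 3 SKOV3 and 2 OVCAR3 groups. EZH2 makes up 43.0% and 29.1% of its pair in the RSF1 and RSF1delUAB libraries against 52.7% in control, and CBX6 66.3% and 61.8% of its family against 30.4%.

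RSF1 was next set against RSF1delUAB, constructs that by their names differ in the UAB region. RSF1 transcript itself was 0.56 log2 units higher with RSF1 than with RSF1delUAB (adjusted p = 5.07e-06), so the constructs differed in level as well as in sequence, and these cannot be told apart. Of the 40 members 5 were higher and 13 lower with RSF1, and 22 did not pass. That is 12.5% and 32.5%, where 18.5% of all genes were higher and 20.2% lower (38.6% in all), and the median of the members was -0.10 against 0.0017 over all genes. No member reached a 2-fold difference, where 780 of all 16735 genes were called at least 2-fold higher and 700 at least 2-fold lower. The 5 higher members were EZH2, EED, PCGF3, YAF2 and USP16.

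The chromodomain genes of canonical PRC1 were lower with RSF1 without exception among the members. CBX2 averaged 15.2 ± 2.09 CPM with RSF1 and 23.0 ± 0.78 CPM with RSF1delUAB, CBX7 7.45 ± 0.24 and 11.8 ± 0.51 CPM, and CBX8 13.0 ± 1.49 and 19.8 ± 2.76 CPM (SD, n = 3 each). The log2 differences of these genes were -0.60 (CBX2, adjusted p = 0.000459), -0.67 (CBX7, adjusted p = 0.000374) and -0.60 (CBX8, SE 0.12, adjusted p = 0.000354). CBX6 was lower as well, by 0.32 on the log2 scale (adjusted p = 0.00264). CBX2 and CBX8 are neighbours on chromosome 17, with 4.15 kb between their gene bodies, and CBX6 and CBX7 lie 248 kb apart on chromosome 22.

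In PRC2 the paralogues EZH1 and EZH2 differed in opposite directions before the regional offset. EZH1 had the smallest adjusted p of the complex, with 37.7 ± 1.57 CPM in RSF1 and 55.9 ± 2.96 CPM in RSF1delUAB libraries, a log2 difference of -0.57 (SE 0.076, adjusted p = 4.63e-06). EZH2 differed by 0.31 (SE 0.078, adjusted p = 0.00364) and EED by 0.56 (SE 0.098, adjusted p = 0.000114). SUZ12 (-0.40), PHF1 (-0.37) and AEBP2 (-0.24) were lower with RSF1. With the regional offset EZH1 (-0.032, adjusted p = 0.783 by edgeR) and SUZ12 (-0.028) were not called. EZH2 (0.44), EED (0.32), PHF1 (-0.44) and AEBP2 (-0.24) kept their calls. AEBP2, a zinc-finger subunit, lost its call without RSF1 replicate 2 or 3 or RSF1delUAB replicate 1 or 2, where the adjusted p reached 0.128.

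Of the remaining complexes, RNF2 was lower with RSF1 by 0.31 (SE 0.083, adjusted p = 0.00567). KDM2B had the smallest adjusted p of variant PRC1, at 45.3, 47.3 and 52.7 CPM with RSF1 against 69.4, 69.4 and 64.9 CPM with RSF1delUAB, a log2 difference of -0.49 (SE 0.074, adjusted p = 2.31e-05). The call of KDM2B was lost with the regional offset (-0.082). RYBP was lower by 0.30 (adjusted p = 0.013), a call lost without RSF1 replicate 3 or RSF1delUAB replicate 3, where the adjusted p reached 0.0735. USP16 was higher by 0.45 (SE 0.082, adjusted p = 0.00017) and USP22 lower by 0.47 (SE 0.080, adjusted p = 7.84e-05), at 151, 186 and 199 CPM with RSF1 against 241, 246 and 258 CPM with RSF1delUAB. No gene of PR-DUB passed, the nearest being ASXL2 (adjusted p = 0.0562), whose RSF1 libraries lay at 48.2, 75.3 and 82.5 CPM against 79.2, 84.4 and 93.3 CPM with RSF1delUAB. The low value was that of RSF1 replicate 1, which was also the lowest RSF1 library for USP22, PHC3, BCOR and ASXL1. USP22 was lower by 0.37 without it.

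In SKOV3 the members were also set beside their neighbours on the chromosome. For each member the median log2 fold change of up to 100 nearest tested genes, up to 50 on each side, was taken as its regional median. Fewer genes were used on a side where the chromosome ended sooner, which bears on PCGF3, at base 705748 of chromosome 4. In RSF1 against control it was 0.93 around both CBX6 and L3MBTL2, 0.91 around CBX7 and 0.57 around EED, which lies on the same chromosome as RSF1, and it was -0.77 around JARID2 and -0.62 around RNF2 and KDM2B. With RSF1, BAP1 (-0.54) and USP21 (-0.41) fell by about as much as their regions, at -0.61 and -0.58.

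With these regional medians taken out as an offset in the fit, 4 members were higher and 25 lower in RSF1 against control, where 30.7% of all genes were higher and 30.5% lower. In RSF1delUAB against control 6 were higher and 22 lower, where the shares of all genes were 31.1% and 30.4%. In each of these comparisons 22 members kept their call. Against control, EED with RSF1 and L3MBTL2 with both constructs turned to the opposite call under the offset. BAP1, USP21 and PHC3 lost their calls with both constructs, PCGF6 lost its call with RSF1, and RNF2, CBX7, SCMH1, YAF2 and USP22 lost theirs with RSF1delUAB. Calls gained with RSF1 were YAF2 (higher) and RING1, CBX7, ASXL2 and USP22 (lower), and with RSF1delUAB they were AEBP2 and BCOR (higher) and PHF1, RING1 and CBX8 (lower).

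BMI1, SCML2, RYBP, PCGF3, USP16, JARID2, CBX6 and BCORL1 kept their calls with both constructs, though not the size of their changes. The log2 fold change moved to -0.66 for USP16 with RSF1, and to -0.71 for PCGF3 and -0.52 for BMI1 with RSF1delUAB. KDM2B moved to -0.27 and -0.18 with RSF1 and RSF1delUAB, EZH2 to -0.24 with RSF1 and EZH1 to 0.24 with RSF1delUAB. Changes grew for PCGF1, at -0.98 with RSF1 and -1.01 with RSF1delUAB, and for SUZ12, at -0.58 with RSF1delUAB. In RSF1 against RSF1delUAB the offset was the regional median with RSF1 less that with RSF1delUAB, each against control. It was not the regional median of that comparison itself. With it, 5 members were higher and 11 lower, where 17.5% of all genes were higher and 18.8% lower. Between the constructs 14 members kept their call, EZH1, SUZ12, PCGF3 and KDM2B lost it, and PCGF6 (higher) and BMI1 (lower) gained one. There EED moved to 0.32 and USP22 to -0.27.

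**Figure D4:**
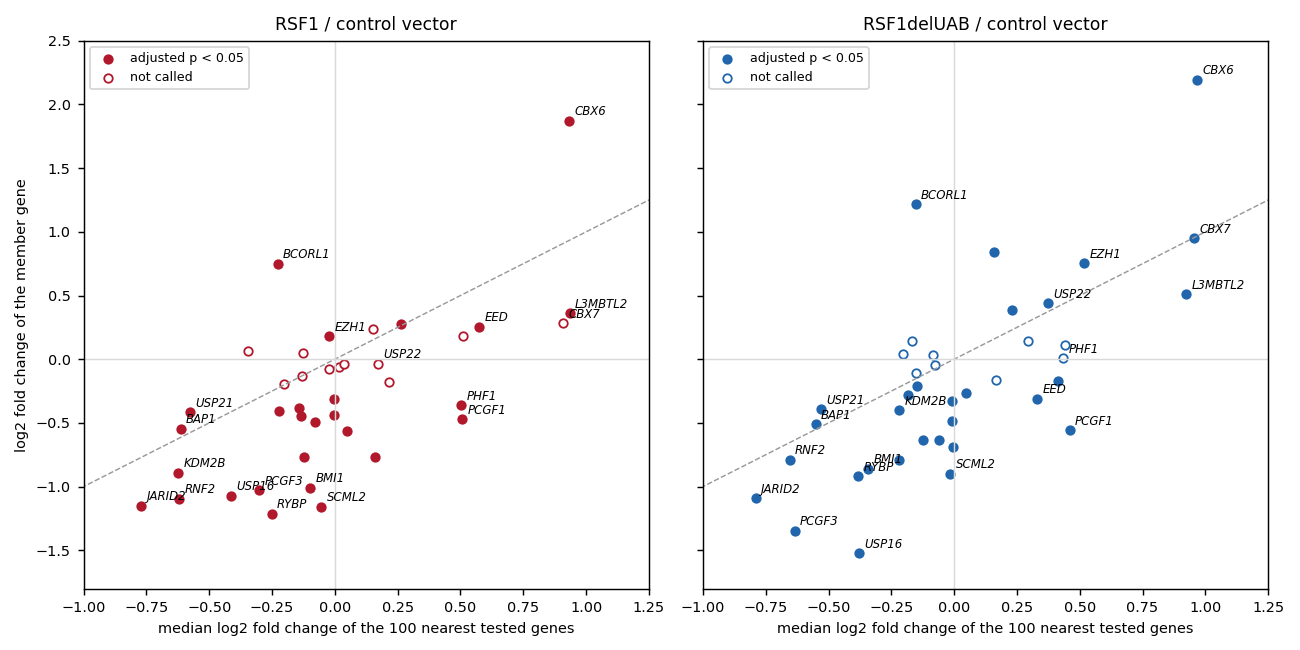
Log2 fold change of each member (y axis) against the median log2 fold change of up to 100 nearest tested genes (x axis) in SKOV3. RSF1 against control is on the left and RSF1delUAB against control on the right. The dashed line marks equal values and filled points have adjusted p under 0.05. BAP1 and USP21 lie near the line, whereas BMI1, SCML2 and RYBP lie well below it and CBX6 and BCORL1 above it.

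The 250 bases before the start are shown for 4 of the genes whose own changes were far from those of their neighbours. These are RYBP, SCML2 and BMI1, whose regional medians with RSF1 were -0.25, -0.05 and -0.10, and BCORL1, which rose where its region stood at -0.23. With RSF1delUAB the regional medians were -0.38, -0.02, -0.34 and -0.15. Other such genes, among them PCGF1 and CBX6, are not shown. The stretches are written 5′ to 3′ on the strand of the gene, from RefSeq promoters on GRCh38.p14. Capitals mark the motif GGGGCGGGG, known from SP and KLF factors, searched on both strands.
RYBP, chr3:72446624-72446873, minus strand: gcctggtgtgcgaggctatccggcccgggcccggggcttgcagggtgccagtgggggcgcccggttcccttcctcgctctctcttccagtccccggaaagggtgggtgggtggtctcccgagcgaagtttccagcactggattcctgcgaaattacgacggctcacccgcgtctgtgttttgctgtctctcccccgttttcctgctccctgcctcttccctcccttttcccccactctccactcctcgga
SCML2, chrX:18354689-18354938, minus strand: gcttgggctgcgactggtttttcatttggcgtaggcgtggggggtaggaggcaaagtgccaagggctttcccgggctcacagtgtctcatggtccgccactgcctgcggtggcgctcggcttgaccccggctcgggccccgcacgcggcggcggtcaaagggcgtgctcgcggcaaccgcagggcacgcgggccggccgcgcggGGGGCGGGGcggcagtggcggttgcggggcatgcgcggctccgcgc
BMI1, chr10:22320849-22321098, plus strand: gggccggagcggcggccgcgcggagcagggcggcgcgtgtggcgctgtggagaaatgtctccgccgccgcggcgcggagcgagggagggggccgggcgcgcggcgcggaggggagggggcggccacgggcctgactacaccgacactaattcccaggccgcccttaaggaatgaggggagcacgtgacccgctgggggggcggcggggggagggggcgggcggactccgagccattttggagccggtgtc
BCORL1, chrX:129980729-129980978, plus strand: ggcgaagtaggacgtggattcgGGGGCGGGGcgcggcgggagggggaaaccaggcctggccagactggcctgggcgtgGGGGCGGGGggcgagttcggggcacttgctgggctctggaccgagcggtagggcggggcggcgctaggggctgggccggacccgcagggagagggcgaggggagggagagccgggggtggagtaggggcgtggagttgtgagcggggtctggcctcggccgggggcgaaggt

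The RYBP, SCML2, BMI1 and BCORL1 stretches hold 17, 33, 35 and 25 CpG dinucleotides. The median was 11 over all 35116 RefSeq promoters of this length and 28 over the promoters of members, so these stretches do not stand out among members. Further promoters listed for BMI1 and BCORL1, inside the gene bodies, hold 54 and 39 and are not shown. The motif in capitals was present in SCML2 and BCORL1 and in neither of the others, and 15.1% of all promoters held it. The table matched 36 of the 40 members, with 53 promoters, and 19 of those 53 (35.8%) held the motif. BAP1, CBX2, CBX8 and MYSM1 had no entry. On either strand the ETS motif CCGGAAG was in none of the 4 stretches and in 8.52% of all promoters. The NF-Y motif CCAAT was likewise in none of them and in 32.0% of all, as was TATAAA with 10.7%. E2F motifs and the NRF1 motif, also searched, were absent from the 4 as well. Such a match is a description of letters and does not show a bound site.

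In OVCAR3, cells expressing the UAB peptide were compared with scramble cells. Of 39 members tested 2 rose and 1 fell, 5.13% and 2.56%, where 5.45% of all 18359 genes tested were higher and 5.46% lower, a share close to that of other genes. The median of the members was 0.02, against 0.0089 over all genes, and 36 members did not pass. At an unadjusted p under 0.05 the counts were 4 higher and 3 lower of 39 members, against 2383 higher and 2275 lower of all 18359 genes.

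BMI1 was at 22.5 and 21.5 CPM with UAB peptide against 14.3 and 14.3 CPM with scramble, a log2 fold change of 0.62 (SE 0.16, adjusted p = 0.0199 by edgeR). CBX2 was at 80.1 and 82.5 CPM against 60.4 and 51.5 CPM with scramble, a log2 fold change of 0.54 (SE 0.14, adjusted p = 0.0209 by edgeR). PCGF5 was at 37.9 and 34.7 CPM against 52.1 and 49.4 CPM with scramble, a fall of 0.48 on the log2 scale (SE 0.14, adjusted p = 0.0372 by edgeR). The groups did not overlap in any of the 3 genes, but with 2 libraries per group such separation was also seen in members not called, such as AEBP2. All 3 calls were lost without single libraries: BMI1 without UAB peptide replicate 1 or scramble replicate 1 (adjusted p = 0.0734 and 0.07), CBX2 without scramble replicate 2 (0.164) and PCGF5 without any 1 of the 4 (0.0634 to 0.195).

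The members nearest to the threshold were PCGF3, at 45.7 and 47.5 CPM with UAB peptide against 28.7 and 37.2 CPM with scramble (adjusted p = 0.0513 by edgeR), and AEBP2, at 33.9 and 32.0 CPM against 47.4 and 43.1 CPM (adjusted p = 0.0515 by edgeR). USP22 had the smallest adjusted p among the other deubiquitinases (0.159 by edgeR), at 453 and 406 CPM with UAB peptide against 331 and 365 CPM with scramble. RNF2, the nearer of the E3 ligases, was at 39.5 and 29.7 CPM with UAB peptide against 32.1 and 32.2 CPM with scramble (adjusted p = 0.742 by edgeR). BAP1, the nearest of PR-DUB, was at 81.3 and 84.7 CPM with UAB peptide against 96.2 and 83.4 CPM with scramble (adjusted p = 0.66 by edgeR). The log2 fold changes of the 36 members that did not pass lay between -0.46 and 0.50. EZH2 stood at 48.9 and 50.05 CPM with UAB peptide and at 51.0 and 47.5 CPM with scramble, and made up 60.7% ± 0.52 and 60.9% ± 4.25 of the TPM of its pair with EZH1 (SD, n = 2).

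Some members differed between replicates more than between groups in OVCAR3. ASXL2 was at 97.4 and 66.1 CPM with UAB peptide and at 63.6 and 95.3 CPM with scramble, MYSM1 at 64.9 and 44.8 CPM and at 42.2 and 59.0 CPM, and PHC3 at 112 and 89.9 CPM and at 77.8 and 102 CPM. In each, UAB peptide replicate 1 and scramble replicate 2 were the high libraries, as they were for RSF1.

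**Figure D5:**
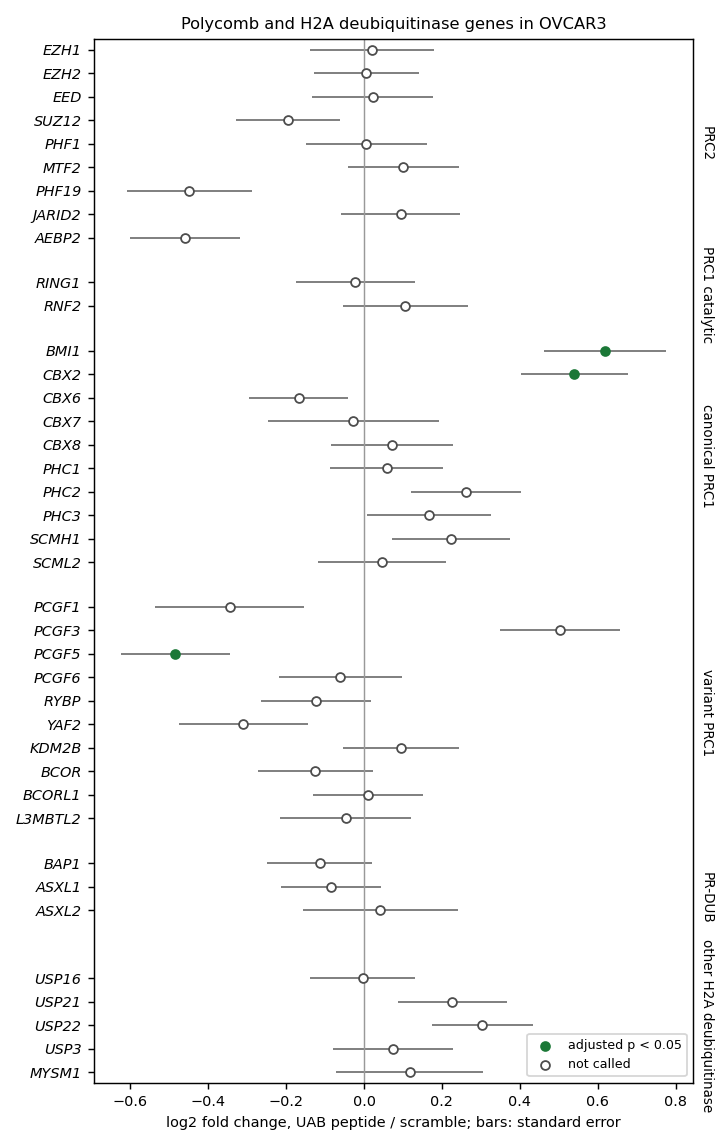
Log2 fold change of UAB peptide against scramble in OVCAR3 (x axis) for the 39 members tested, grouped by complex, with standard errors; filled points have adjusted p under 0.05. The filled points are BMI1 and CBX2 on the right and PCGF5 on the left, and the other 36 lie between -0.46 and 0.50.

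Other genes of these pathways came from 6 lists apart from the members. The shares to read their counts against are those of all genes tested: 34.3% higher and 32.9% lower with RSF1, 34.5% and 32.1% with RSF1delUAB, and 5.45% and 5.46% with UAB peptide in OVCAR3. Of 28 further Polycomb genes tested in SKOV3, 7 rose and 16 fell with RSF1 (median log2 fold change -0.23) and 7 rose and 13 fell with RSF1delUAB (median -0.14). TFDP1, the E2F partner of the PCGF6 complex, was at 88.5 ± 1.81 CPM in RSF1 libraries and 81.8 ± 3.30 CPM in RSF1delUAB libraries, against 259 ± 8.94 CPM in control (-1.55 and -1.66 on the log2 scale; adjusted p = 3.61e-14 and 1.07e-14). EPOP, a PRC2 partner, rose to 17.8 ± 2.36 and 15.3 ± 2.47 CPM, against 3.49 ± 0.45 CPM in control (2.35 and 2.13). SFMBT1, an MBT-domain protein, fell by 0.87 with RSF1 and by 1.39 with RSF1delUAB. PCGF2, the closest paralogue of BMI1, was at 34.9 ± 3.00 CPM in RSF1 libraries and 45.3 ± 2.24 CPM in RSF1delUAB libraries, against 20.1 ± 0.33 CPM in control (0.79 and 1.17; adjusted p = 1.13e-07 and 2.70e-10), while BMI1 fell.

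Of 7 PR-DUB partners 4 fell with RSF1 and 5 with RSF1delUAB, and none rose by edgeR (medians -0.59 and -0.35). In the list around the SAGA deubiquitinase module, 2 rose and 8 fell of 13 with RSF1, and 6 rose and 7 fell with RSF1delUAB (medians -0.55 and -0.37). USP12, another H2A deubiquitinase, was at 50.8 ± 5.69 and 37.5 ± 0.11 CPM, against 123 ± 8.36 CPM in control (-1.27 and -1.71). ATXN7L3, which activates USP22, was at 92.3 ± 2.71 CPM in RSF1 libraries and 176 ± 3.54 CPM in RSF1delUAB libraries, against 152 ± 3.89 CPM in control, and differed between the constructs by -0.93 on the log2 scale (adjusted p = 2.90e-10). Its call against control with RSF1delUAB (0.21) turned to -0.42 with the regional offset. Of 11 other ligases and readers 4 rose and 5 fell with RSF1 and 4 rose and 3 fell with RSF1delUAB, and of 7 histone H3 lysine demethylases and their partners 2 rose and 4 fell with each.

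In OVCAR3 the calls in these lists were 2 higher and 0 lower of 30 further Polycomb genes, 0 of 7 PR-DUB partners, 0 of 14 in the SAGA list, 1 higher of 11 ligases and readers, and 0 of 7 in the demethylase list. Of 18 genes known as Polycomb targets in textbooks, only 7 passed the filter on low counts in each line, so counts over them do not speak for the list and none is given. CDKN2B, a cell cycle inhibitor, was at 33.4 ± 5.72 CPM with UAB peptide against 77.9 ± 2.18 CPM with scramble (-1.22, SE 0.15, adjusted p = 0.000116 by edgeR; SD, n = 2).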

How the data were processed

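Poly-A RNA libraries were analysed from count tables, 1 per cell line. Values are raw read counts for each gene, whole numbers as deposited by the authors, with no normalization. Per the submitters' processing notes the tools were FastQC, STAR 2.7.9a and Subread, with the builds GRCh38, hg38 and GRCm38; the gene identifiers are human. Gene lengths in the tables gave TPM. Symbols matched 62625 of 62703 identifiers, and the ANK2 record, broken by line ends, was put back together. The column taken as OVCAR3 scramble replicate 2 has an unlabelled extra letter in its name.

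Each line was fitted in R 4.3.3 (edgeR 4.0.16, limma 3.58.1): TMM, filterByExpr with a minimum count of 10, all groups of a line in 1 quasi-likelihood fit with no block, Benjamini-Hochberg over all genes tested, threshold 0.05. SKOV3 kept 16735 genes, with 6 residual degrees of freedom and a biological coefficient of variation of 0.0734, and OVCAR3 kept 18359, with 2 and 0.124. Fold changes used a prior count of 0.125. A standard error is the size of the log2 fold change divided by the square root of its F statistic. The fit was tested on simulated data. Depth was 15194678 to 24026993 counts per library, and floors cover counting error only.

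Members shown in full had at least a 2-fold change past the threshold in a comparison, or the smallest adjusted p of their complex there. From each other list at most 4 genes were named, by smallest adjusted p; 1 gene that this rule names is not reported here. The members and lists were chosen with earlier results of these data known. Alternatives were RLE size factors, no filter, DESeq2 1.42.0, a replicate block, a regional offset, the groups of a comparison alone, and leaving out each library, where a lone OVCAR3 library is assumed to vary like the other group.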

Additional observations from a re-analysis of the deposited data

How the results depend on the processing

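Counts of members called in the 3 SKOV3 comparisons stayed within 1.5 times under every alternative run. In OVCAR3 the 2 higher members became 1 with a replicate block, 0 with the regional offset and 1 to 2 with a library left out. The 1 lower member became 2 with RLE size factors, 2 with no filter, 0 with the block and 0 to 0 with a library left out. With the regional offset the log2 fold changes in RSF1 against control turned to -0.32 (EED), -0.57 (L3MBTL2), 0.070 (BAP1) and 0.16 (USP21). In RSF1delUAB against control they turned to -0.0029 (CBX7), -0.41 (L3MBTL2), 0.042 (BAP1), 0.14 (USP21) and -0.42 (ATXN7L3), and PCGF3 in RSF1 against RSF1delUAB to -0.017. The offset is built from neighbouring genes, and the cause was not tested. RSF1 in OVCAR3, not called, ranged from -0.11 to 0.31 with a library left out. Calls that held without any 1 library were 25 of 28 for RSF1 against control, 26 of 31 for RSF1delUAB against control, 16 of 18 between the constructs and 0 of 3 in OVCAR3. In SKOV3, deviations of libraries with the same replicate number correlated at -0.0417 to 0.0712, and those with different numbers at -0.08 to 0.0405. The labels do not say what a replicate number shares, and these correlations cannot settle it. The replicate block lost the calls of EZH1 (0.18, RSF1 against control), SUZ12 (-0.17, RSF1delUAB against control) and, in OVCAR3, CBX2 and PCGF5. In OVCAR3 the correlation was -0.1493 for the same number and 0.1493 for different numbers, values that must mirror each other with 2 libraries per group. A crossed replicate block, added after seeing the data, called 5 higher and 3 lower. With 2 residual degrees of freedom OVCAR3 resolves less than SKOV3.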
